A study of Mus musculus with 9 samples.

Results

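The 43 collagen genes described here were chosen by name, as every gene of the deposited table whose symbol has the form Col, a number, a and a number, with Col22a1 left out. They are 43 of the 54146 genes in the table, and fall by the structure of their protein into 11 fibrillar, 6 basement membrane and 8 FACIT genes (fibril-associated collagens with interrupted triple helices) and 18 others. RNA had been sequenced from live CD45+ CD11c- Gr1- MHCII- SiglecF+ cells, a gate for eosinophils, which flow cytometry had sorted out of the quadriceps infiltrates of adult mice. The 9 libraries formed 3 groups of 3: mdx_IL5Tg, named for both the mdx background and an interleukin-5 transgene, libraries S1 to S3, mdx, S4 to S6, and IL5Tg, S7 to S9. The mdx strain lacks dystrophin and models Duchenne muscular dystrophy, and interleukin-5 is the growth and survival factor of eosinophils. Strain is given as mdx for every sample, IL5Tg included, in conflict with the titles, from which the groups were taken, and replicates are described as biological. The sources used here do not give the promoter that drives the transgene, the age of the mice in weeks or any pooling of animals. The 3 comparisons ask how the collagen genes differ by dystrophic background among transgenic mice (mdx_IL5Tg against IL5Tg), by the transgene within dystrophic muscle (mdx_IL5Tg against mdx), and between the single genotypes (mdx against IL5Tg). They share libraries pairwise and are not independent of each other.

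Collagens are trimers of chains that wind into a triple helix, and they form the main fibres and sheets of the extracellular matrix. In muscle the fibrillar types I, III and V build the endomysium and perimysium around fibres, type IV forms the sheet of each basement membrane, FACITs and type VI tie fibrils to their surroundings, and fibrosis by collagen deposition is a hallmark of dystrophic muscle. The usual producers are fibroblasts and their progenitors, tenocytes, endothelial cells and mural cells. Each value below is the level of a transcript in a sorted sample, and the cells it came from were not identified. Fewer cells of a producing type and less RNA per cell cannot be told apart in such bulk samples.

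Library totals ran from 26752800 to 58368300 counts, and Pearson's r between libraries of a group was 0.9752 to 0.9943 across genes on log2(CPM + 1). Levels are CPM, a gene's count relative to its library's total, scaled by edgeR's TMM factors, and values are given in the order of library numbers. Il5, the transgene, lay at 664 to 724 CPM in mdx_IL5Tg, 0.265 to 0.402 in mdx and 317 to 523 in IL5Tg. The 10 eosinophil markers summed to 4979 to 5449.9 CPM in mdx_IL5Tg, 2169 to 2876 in mdx and 5012 to 13321 in IL5Tg. Of these, 3 were called higher in mdx_IL5Tg against mdx (10.1% of all genes) and 5 lower in mdx against IL5Tg (8.96% of all genes). None was called in mdx_IL5Tg against IL5Tg, where 4.35% of all genes were called higher and 2.87% lower. At an unadjusted edgeR p under 0.05, 5 were higher and 4 lower there (13.5% and 14.2% of all genes). Granule genes account for much of the spread of the sum: Prg2 averaged 618 CPM in mdx_IL5Tg, 226 in mdx and 3766 in IL5Tg. The receptor genes Il5ra and Ccr3 were at log2 0.02 and 0.07 in mdx against IL5Tg and were not called there. Siglecf, whose protein the sorting gate used, was called there, at log2 -1.17 (adjusted p = 0.00079 by edgeR). In mdx_IL5Tg against mdx, Siglecf was at log2 1.73 (adjusted p = 7.2e-05 by edgeR).

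Collagen transcripts were lower in mdx_IL5Tg than in mdx and higher in mdx than in IL5Tg, across every class, while mdx_IL5Tg and IL5Tg differed in few of them. Together the 43 genes took 0.204, 0.41 and 0.105% of all counts in mdx_IL5Tg, 1.05, 1.44 and 0.753% in mdx and 0.207, 0.134 and 0.283% in IL5Tg. Every mdx library stood above the other 6, and mdx_IL5Tg and IL5Tg overlapped. Of the 43 genes, 39 passed the filter on low counts, and all log2 fold changes and p-values come from edgeR's quasi-likelihood test, adjusted by Benjamini-Hochberg over 15886 genes, with a call below 0.05.

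In mdx_IL5Tg against mdx, 27 of the 39 fell and 0 rose, against a background of 11.5% of all genes called lower and 10.1% called higher. At an unadjusted p under 0.05, 33 were lower and 1 higher (21.0% and 15.5% of all genes), and DESeq2 and limma voom each called 30 lower. The median log2 fold change was -1.78, against -0.13 over all genes, and the calls ranged from -2.54 (Col11a1) to -1.23 (Col20a1). All 3 mdx_IL5Tg libraries lay below all 3 mdx libraries for 32 genes, where 23.2% of all genes did so, and above for 0 (18.8%). In mdx against IL5Tg, 25 rose and 0 fell, against backgrounds of 11.8% and 8.96%. At an unadjusted p under 0.05 the counts were 29 and 0 (19.7% and 16.5% of all genes). The median was 1.91, against 0.01 over all genes, the calls ranged from 1.56 (Col11a2) to 3.34 (Col5a3), and mdx lay wholly above IL5Tg for 30 genes and wholly below for 0, where 22.2% and 19.7% of all genes did so. In mdx_IL5Tg against IL5Tg, 2 rose, Col5a3 and Col6a5, and 0 fell, against backgrounds of 4.35% and 2.87%. Here 11 were higher and 2 lower at an unadjusted p under 0.05 (13.5% and 14.2% of all genes), DESeq2 called 8 higher and limma voom 1, and the median of 0.05 lay beside -0.05 over all genes. Groups did not overlap for 4 genes that were higher in mdx_IL5Tg and 1 that was lower, where 19.4% and 16.4% of all genes did so. Scaling by library totals alone moved the medians of all genes to -0.27 in mdx_IL5Tg against IL5Tg, -0.46 in mdx_IL5Tg against mdx and 0.12 in mdx against IL5Tg. Those of the collagen genes then stood at -0.16, -2.08 and 2.03 in the same order.

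The number of calls depended on single libraries. No collagen gene was called in mdx_IL5Tg against IL5Tg without mdx_IL5Tg S1 or S2 or without IL5Tg S7, S8 or S9, and 11 were called higher without mdx_IL5Tg S3. Against mdx, 8 were called lower in mdx_IL5Tg without mdx_IL5Tg S1 and 12 without mdx S4. Calls that held in all 17 alternative settings numbered 7 of 27 in mdx_IL5Tg against mdx (Col5a2, Col5a3, Col8a1, Col11a1, Col11a2, Col12a1 and Col27a1), 16 of 25 in mdx against IL5Tg and 0 of 2 in mdx_IL5Tg against IL5Tg.

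Libraries of a group ranked alike over the collagen genes. In mdx_IL5Tg, S3 was the lowest of its group for 34 of 39 genes and S2 the highest for 33. In mdx, S6 was the lowest for 31 and S5 the highest for 24, and in IL5Tg, S8 was the lowest for 25 and S9 the highest for 28. Collagen genes of a library are not independent measurements.

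**Figure D1:**
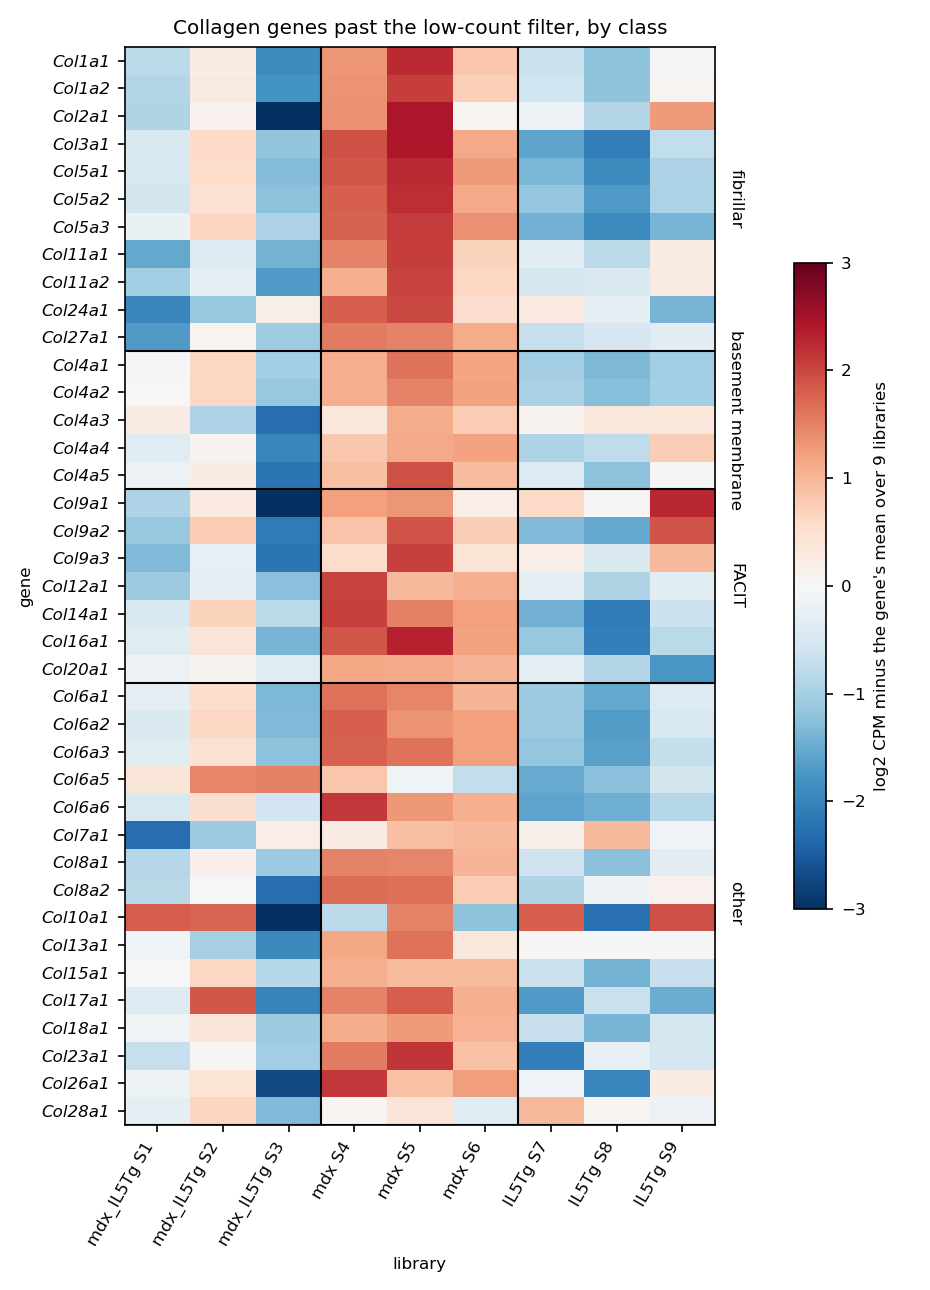
Rows are the 39 tested collagen genes by class and columns the 9 libraries; colour is log2 CPM minus the gene's mean over the libraries, with the colour scale capped at 3 in both directions. The mdx columns are high for most rows, and S3 is the lowest mdx_IL5Tg library for 34 rows. Col6a5, Col9a1, Col10a1 and Col28a1 do not have their highest mean CPM in mdx.

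**Figure D2:**
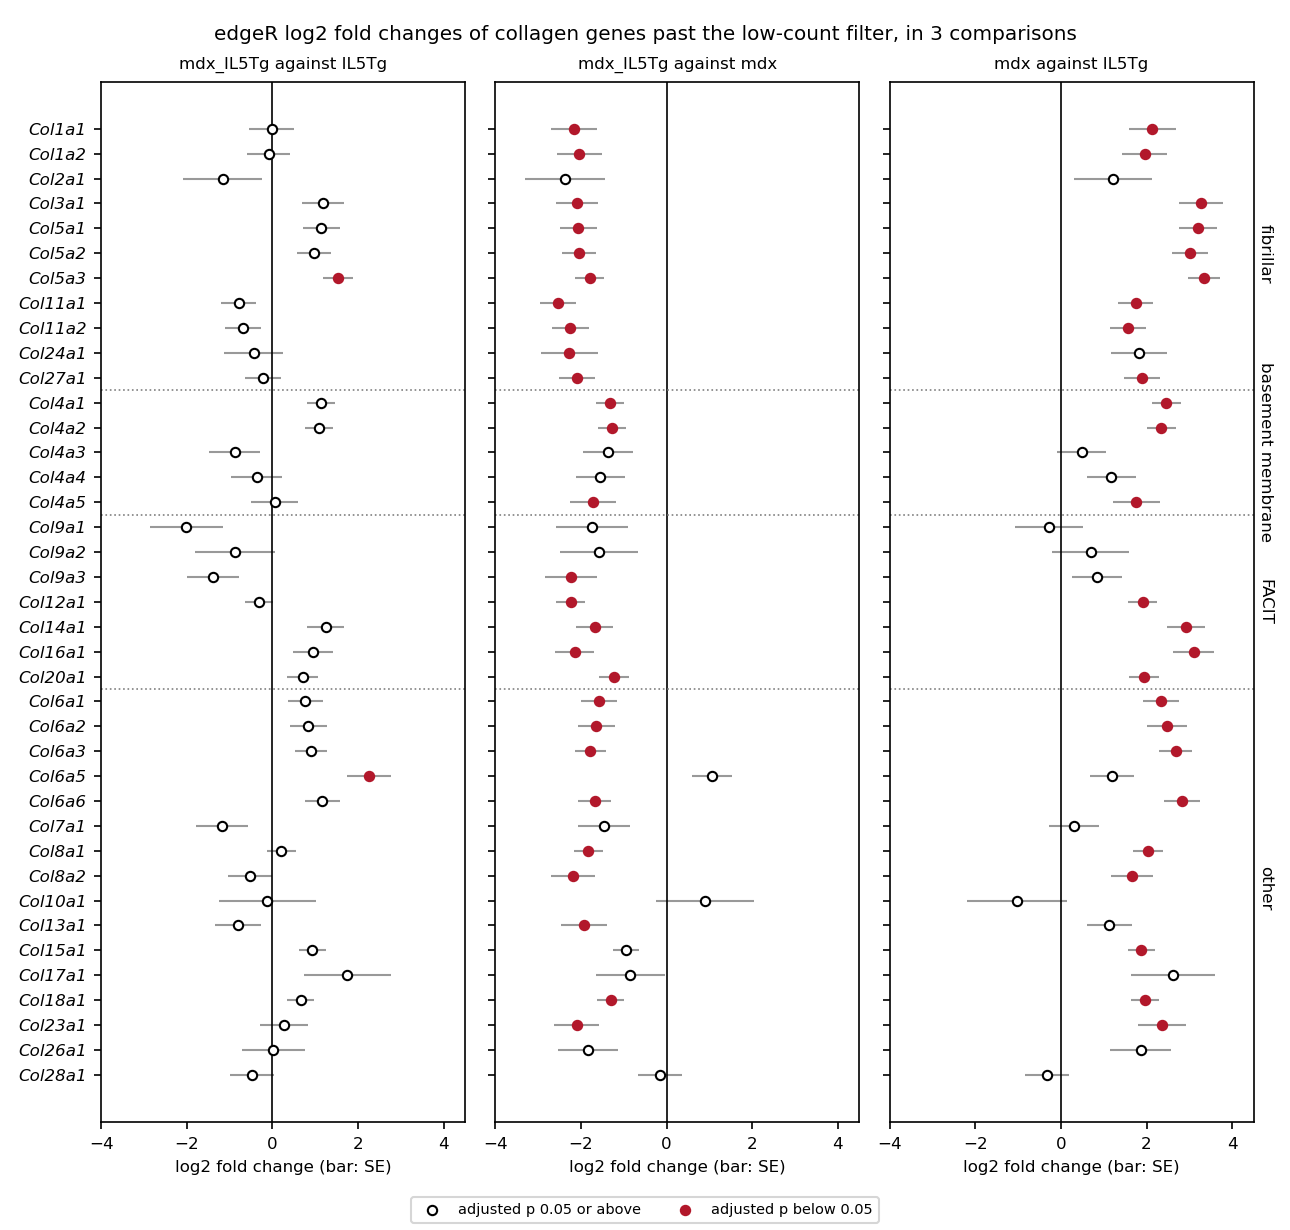
Points are edgeR log2 fold changes of the 39 tested genes in the 3 comparisons, bars are 1 standard error, and filled points have an adjusted p below 0.05. Calls number 2 in mdx_IL5Tg against IL5Tg, 27 (all below 0) in mdx_IL5Tg against mdx and 25 (all above 0) in mdx against IL5Tg.

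The fibrillar collagens form the banded fibrils that give tissue its tensile strength, with type I the main component, type III its thinner partner and type V the chain that starts fibrils and limits their width. In mdx_IL5Tg against mdx 10 of 11 fell (class median log2 -2.10), where 11.5% of all genes did so. In mdx against IL5Tg 9 of 11 rose (1.96), beside 11.8% of all genes. In mdx_IL5Tg against IL5Tg 1 rose (-0.09), beside 4.35%. There 4 were higher and 0 lower at an unadjusted edgeR p under 0.05 (13.5% and 14.2% of all genes). DESeq2 called Col5a1 and Col5a3 higher in that comparison, and edgeR log2 fold changes ran from -1.16 to 1.54. The same shares of all genes apply to the classes below. Promoter windows of 3 fibrillar genes are shown here, each from 250 bases before to 50 after the start of the gene in RefSeq on GRCm38.p6. For Col1a2 that start lies inside the GENCODE interval, which begins further upstream. They were picked after values were seen: Col5a3 is the fibrillar gene called in all 3 comparisons, and Col1a2 and Col3a1 are abundant genes of types I and III. Capitals mark, on either strand, the CCAAT box (spelled CCAAT), the GC box (spelled GGGCGG) and the TATA box (spelled TATAAA), none of which overlapped another in these windows. Col1a2 lies at chr6:4505368-4505667, plus strand, Col3a1 at chr1:45311288-45311587, plus strand and Col5a3 at chr9:20815018-20815317, minus strand.
Col1a2: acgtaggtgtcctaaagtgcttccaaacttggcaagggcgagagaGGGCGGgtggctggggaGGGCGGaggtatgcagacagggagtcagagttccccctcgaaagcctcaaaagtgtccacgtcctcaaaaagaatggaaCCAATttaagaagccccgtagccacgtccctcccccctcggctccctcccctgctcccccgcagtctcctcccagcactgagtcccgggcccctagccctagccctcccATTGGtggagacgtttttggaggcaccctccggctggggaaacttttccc
Col3a1: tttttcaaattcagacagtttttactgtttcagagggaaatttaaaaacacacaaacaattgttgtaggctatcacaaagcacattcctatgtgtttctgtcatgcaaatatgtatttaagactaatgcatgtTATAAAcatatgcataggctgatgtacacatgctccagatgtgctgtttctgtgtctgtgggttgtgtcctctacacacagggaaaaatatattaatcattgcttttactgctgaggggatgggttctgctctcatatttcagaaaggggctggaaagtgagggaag
Col5a3: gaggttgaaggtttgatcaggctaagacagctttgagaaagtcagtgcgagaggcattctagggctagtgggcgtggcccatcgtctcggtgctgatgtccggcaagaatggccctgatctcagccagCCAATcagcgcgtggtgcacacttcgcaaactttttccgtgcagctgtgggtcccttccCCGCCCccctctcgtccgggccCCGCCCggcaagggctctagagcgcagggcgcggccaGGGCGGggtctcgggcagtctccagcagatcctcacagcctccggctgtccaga
The Col1a2 window holds 2 matches to the CCAAT box and 2 to the GC box, that of Col5a3 1 and 3, and that of Col3a1 1 match to the TATA box alone. Among 32851 such RefSeq windows 37.4% hold the CCAAT box, 35.7% the GC box and 13.6% the TATA box. Of 38 windows found for 35 of the 43 collagen genes, 34.2%, 60.5% and 13.2% do so. These matches describe letters and show no binding.

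Col1a1 (chr11:94936224-94953042, plus strand) encodes the alpha 1 chain of type I collagen and had the highest CPM of all 43 genes. It stood at 651, 1324 and 299.7 CPM in mdx_IL5Tg, 2838, 5317 and 2002 in mdx and 707, 488 and 1104 in IL5Tg. All mdx libraries exceeded the other 6, and mdx_IL5Tg and IL5Tg overlapped. The gene averaged 758 ± 520.4 CPM in mdx_IL5Tg, 3386 ± 1724 in mdx and 766 ± 312 in IL5Tg (SD, n = 3). The gene fell in mdx_IL5Tg against mdx (log2 -2.16 ± 0.54 SE, adjusted p = 0.02 by edgeR) and rose in mdx against IL5Tg (log2 2.14 ± 0.54 SE, adjusted p = 0.021 by edgeR). In mdx_IL5Tg against IL5Tg it was at log2 -0.02 ± 0.52 SE, adjusted p = 0.99 by edgeR, and the sign turned with single libraries left out. Col1a2 (chr6:4504814-4541544, plus strand), the alpha 2 chain of the same trimer, had the same order of libraries at 394, 869 and 210.5 CPM in mdx_IL5Tg, 1831, 3034 and 1199 in mdx and 480.4, 312 and 771 in IL5Tg. It also fell in mdx_IL5Tg against mdx (log2 -2.04) and rose in mdx against IL5Tg (1.96).

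Col3a1 (chr1:45311538-45349706, plus strand) encodes type III collagen, which is laid down early in scar tissue. It measured 300.3, 619 and 181 CPM in mdx_IL5Tg, 1546, 2218 and 915 in mdx and 139, 98.7 and 247 in IL5Tg. The mdx libraries stood above the rest, and only mdx_IL5Tg S3 fell within the range of IL5Tg. It fell in mdx_IL5Tg against mdx (log2 -2.09 ± 0.49 SE, adjusted p = 0.016 by edgeR) and rose in mdx against IL5Tg (log2 3.27 ± 0.52 SE, adjusted p = 0.0021 by edgeR), with a value of log2 1.18 ± 0.48 SE, adjusted p = 0.14 by edgeR in mdx_IL5Tg against IL5Tg.

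The 3 chains of type V collagen were among the genes with the largest log2 fold changes between the single genotypes. Col5a3 (chr9:20770050-20815067, minus strand) had 16.5, 29.6 and 10.025 CPM in mdx_IL5Tg, 64.6, 81.7 and 49.2 in mdx and 6.98, 5.09 and 7.23 in IL5Tg. Its 3 groups did not overlap, with mdx highest and IL5Tg lowest. It rose in mdx_IL5Tg against IL5Tg (log2 1.54 ± 0.35 SE, adjusted p = 0.032 by edgeR), fell in mdx_IL5Tg against mdx (log2 -1.80 ± 0.34 SE, adjusted p = 0.0052 by edgeR) and rose in mdx against IL5Tg (log2 3.34 ± 0.37 SE, adjusted p = 0.00022 by edgeR). The first of these calls ended without mdx_IL5Tg S1 or S2 or IL5Tg S7, S8 or S9 (0.0673 to 0.107, edgeR adjusted p) and with limma voom (0.0552). Col5a1 (chr2:27886425-28039514, plus strand) stood at 30.9, 61.8 and 17.1 CPM in mdx_IL5Tg, 154, 200.3 and 103 in mdx and 16.4, 11.3 and 22 in IL5Tg, with mdx above the other 6 libraries and the remaining groups overlapping. Col5a2 (chr1:45374321-45503282, minus strand) stood at 28.8, 58 and 18 CPM in mdx_IL5Tg, 148, 195 and 92.9 in mdx and 18.8, 13 and 21.8 in IL5Tg. Both fell in mdx_IL5Tg against mdx (log2 -2.06 for Col5a1 and -2.05 for Col5a2) and rose in mdx against IL5Tg (3.20 and 3.02).

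**Figure D3:**
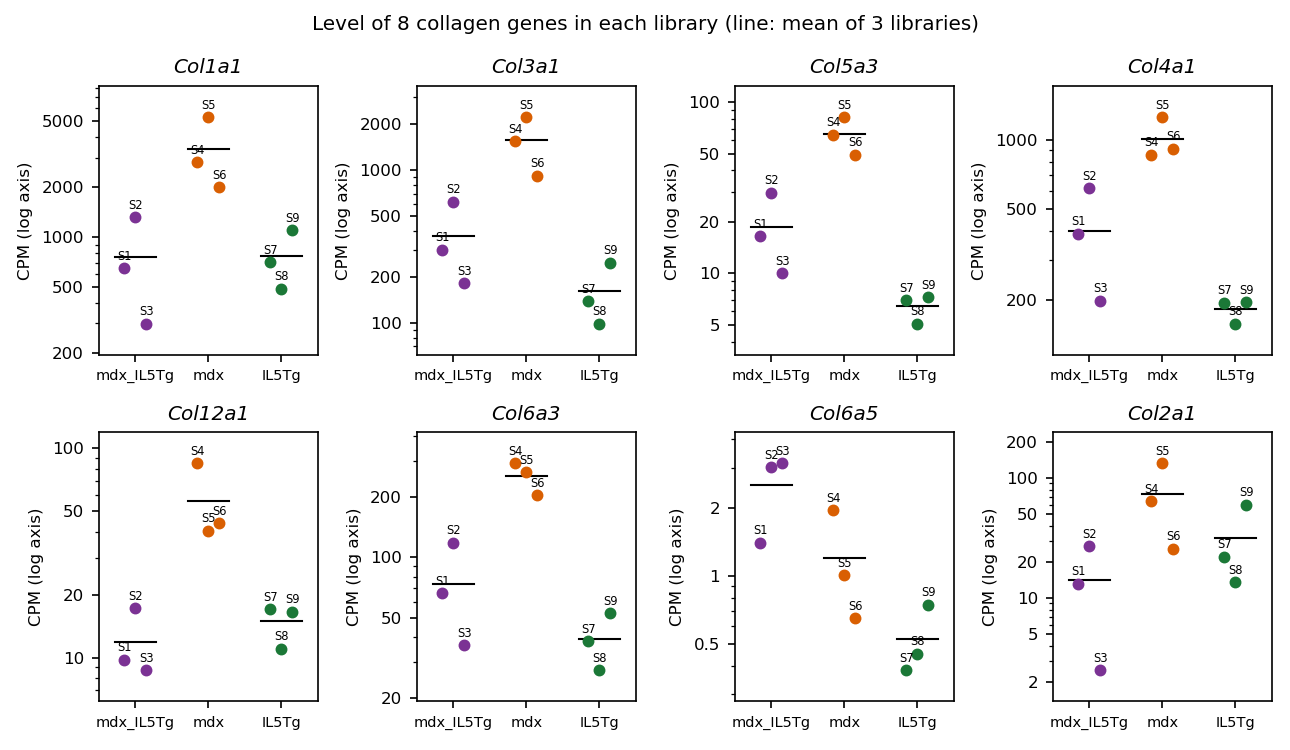
Level of 8 collagen genes in CPM on a log axis, with a point for each library (labelled S1 to S9) and a line for the mean of 3. Col5a3 separates all 3 groups, Col1a1 and Col4a1 are highest in mdx, and Col6a5 has its lowest mean in IL5Tg, where it lies between 0.384 and 0.746 CPM.

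Types II and XI build cartilage fibrils, and type XI chains also occur in other tissues. Col2a1 passed in no comparison: its levels were 13.1, 27 and 2.51 CPM in mdx_IL5Tg, 63.8, 132 and 25.7 in mdx and 22.1, 13.5 and 59.7 in IL5Tg, with mdx S5 and IL5Tg S9 the highest of their groups and mdx_IL5Tg S3 the lowest of all. Col11a1 stood at 3.18, 6.95 and 3.45 CPM in mdx_IL5Tg, 25.6, 38.7 and 14.6 in mdx and 7.33, 5.29 and 10.8 in IL5Tg, with every mdx library above the other 6. Its level fell in mdx_IL5Tg against mdx (log2 -2.54 ± 0.42 SE, adjusted p = 0.0028 by edgeR), where it had the lowest log2 fold change of the 39. Col11a2 stood at 5.79, 9.77 and 3.63 CPM in mdx_IL5Tg, 24.8, 48.5 and 18.1 in mdx and 8.19, 8.73 and 14 in IL5Tg, again with mdx above the rest, and fell in mdx_IL5Tg against mdx (log2 -2.25). Both rose in mdx against IL5Tg, Col11a1 by 1.75 and Col11a2 by 1.56. Types XXIV and XXVII, both scarce here, are known mainly from developing bone and cartilage. Col24a1 had 0.0988, 0.176 and 0.444 CPM in mdx_IL5Tg, 1.36, 1.54 and 0.555 in mdx and 0.48, 0.325 and 0.149 in IL5Tg, fell in mdx_IL5Tg against mdx (log2 -2.27) and was at 1.83 (edgeR adjusted p = 0.068) in mdx against IL5Tg. Col27a1 had 0.553, 1.91 and 0.862 CPM in mdx_IL5Tg, 5.32, 5.02 and 3.88 in mdx and 1.12, 1.27 and 1.45 in IL5Tg, with mdx above all other libraries, and passed in the same comparisons as Col11a1 (log2 -2.10 in mdx_IL5Tg against mdx and 1.89 in mdx against IL5Tg).

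Fibrillar calls in mdx_IL5Tg against mdx were lost, with edgeR, without mdx_IL5Tg S1 for Col1a1, Col1a2, Col3a1, Col5a1 and Col24a1 (adjusted p 0.056 to 0.134), without mdx_IL5Tg S2 for Col24a1 (adjusted p 0.0882), without mdx_IL5Tg S3 for Col1a1, Col1a2 and Col3a1 (adjusted p 0.0546 to 0.0758), without mdx S4 for Col1a1, Col1a2, Col3a1 and Col24a1 (adjusted p 0.0608 to 0.104) and without mdx S5 for Col1a1, Col1a2 and Col24a1 (adjusted p 0.0576 to 0.0655). Those in mdx against IL5Tg were lost, with edgeR, without mdx S4 for Col1a1 and Col1a2 (adjusted p 0.0535 to 0.0706), without mdx S5 for Col1a1, Col1a2 and Col11a2 (adjusted p 0.0713 to 0.0925), without IL5Tg S7 for Col1a1, Col1a2, Col11a1 and Col11a2 (adjusted p 0.055 to 0.0948) and without IL5Tg S8 for Col1a1, Col1a2, Col11a1 and Col11a2 (adjusted p 0.0606 to 0.106). With no filter on low counts, Col1a1, Col1a2, Col3a1 and Col5a1 lost the call in mdx_IL5Tg against mdx (edgeR adjusted p 0.052 to 0.1), and Col1a1, Col1a2 and Col11a2 that in mdx against IL5Tg (0.069 to 0.12). Col24a1 lost its call when the fit held only mdx_IL5Tg and mdx (adjusted p 0.052 by edgeR).

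Type IV collagen is the network of basement membranes, built everywhere from alpha 1 and alpha 2 chains and in some tissues from alpha 3 to 6. Of 5 tested genes 3 fell in mdx_IL5Tg against mdx (class median log2 -1.37), 3 rose in mdx against IL5Tg (1.76) and none passed in mdx_IL5Tg against IL5Tg (0.05; 2 were higher and 0 lower at an unadjusted edgeR p under 0.05, and DESeq2 called Col4a1 and Col4a2 higher). Col4a1 (chr8:11198423-11312826, minus strand) and Col4a2 (chr8:11312805-11449287, plus strand) lie head to head on opposite strands, their annotated bodies overlap by 22 bases, and their windows of 300 bases share 78. The windows are shown because this pair is read from a shared start region, Col4a1 at chr8:11312777-11313076, minus strand and Col4a2 at chr8:11312555-11312854, plus strand, each 5' to 3' on its own gene's strand.
Col4a1: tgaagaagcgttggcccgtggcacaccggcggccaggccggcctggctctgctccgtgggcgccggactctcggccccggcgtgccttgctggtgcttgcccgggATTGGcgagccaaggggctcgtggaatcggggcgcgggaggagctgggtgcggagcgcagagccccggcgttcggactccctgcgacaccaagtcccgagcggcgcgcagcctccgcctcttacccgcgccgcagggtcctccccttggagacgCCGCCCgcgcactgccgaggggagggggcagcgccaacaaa
Col4a2: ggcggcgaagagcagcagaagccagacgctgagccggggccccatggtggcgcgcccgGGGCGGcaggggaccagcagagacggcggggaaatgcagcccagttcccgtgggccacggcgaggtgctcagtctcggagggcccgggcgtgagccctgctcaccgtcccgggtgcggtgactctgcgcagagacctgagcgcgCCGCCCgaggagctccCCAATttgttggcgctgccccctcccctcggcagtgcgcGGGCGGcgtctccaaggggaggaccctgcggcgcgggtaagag
Capitals mark the same boxes: the Col4a1 window holds 1 CCAAT box and 1 GC box, and that of Col4a2 holds 1 CCAAT box and 3 GC boxes. The GC box of the Col4a1 window lies in the shared bases and is the same site as the last GC box of the Col4a2 window.

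Col4a1 had 390.0, 617 and 199.8 CPM in mdx_IL5Tg, 859.8, 1255 and 914 in mdx and 195, 159 and 197 in IL5Tg. Every mdx library exceeded the other 6, and mdx_IL5Tg S3, at 199.8, stood just above the highest IL5Tg library. It averaged 402 ± 209 CPM in mdx_IL5Tg, 1009.7 ± 214 in mdx and 184 ± 21.6 in IL5Tg (SD, n = 3). The gene fell in mdx_IL5Tg against mdx (log2 -1.33 ± 0.33 SE, adjusted p = 0.017 by edgeR), rose in mdx against IL5Tg (log2 2.46 ± 0.34 SE, adjusted p = 0.00086 by edgeR) and was at log2 1.13 ± 0.33 SE, adjusted p = 0.059 by edgeR in mdx_IL5Tg against IL5Tg. Col4a2 followed at 221, 334 and 99.1 CPM in mdx_IL5Tg, 464, 617 and 504 in mdx and 111, 90.2 and 109 in IL5Tg, where mdx_IL5Tg S3 fell among the IL5Tg libraries. It fell in mdx_IL5Tg against mdx (log2 -1.27) and rose in mdx against IL5Tg (2.35).

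Col4a5, an X-linked chain of kidney and other basement membranes (chrX:141475385-141689234, plus strand), had 1.9, 2.47 and 0.47 CPM in mdx_IL5Tg, 3.96, 8 and 4.05 in mdx and 1.6, 0.909 and 2.2 in IL5Tg. Its mdx libraries were the highest 3, and it passed by a narrow margin in mdx_IL5Tg against mdx (log2 -1.72 ± 0.54 SE, adjusted p = 0.045 by edgeR) and in mdx against IL5Tg (log2 1.76 ± 0.55 SE, adjusted p = 0.044 by edgeR). Col4a3 and Col4a4 did not exceed 1.4 CPM in any library and passed in no comparison. The call in mdx_IL5Tg against mdx was lost for Col4a1 without mdx_IL5Tg S1 or mdx S5 (adjusted p 0.0517 to 0.0875 by edgeR), Col4a2 without mdx_IL5Tg S1, mdx S4, mdx S5 or mdx S6 (adjusted p 0.0579 to 0.0959 by edgeR) and Col4a5 without mdx_IL5Tg S1, mdx_IL5Tg S3, mdx S4, mdx S5, mdx S6, IL5Tg S7, IL5Tg S8 or IL5Tg S9 (adjusted p 0.0558 to 0.122 by edgeR). The call in mdx against IL5Tg was lost for Col4a5 without mdx_IL5Tg S1, mdx S4, mdx S5, mdx S6, IL5Tg S7, IL5Tg S8 or IL5Tg S9 (adjusted p 0.0605 to 0.151 by edgeR). Col4a1 and Col4a2 also lost the call in mdx_IL5Tg against mdx with no filter (edgeR adjusted p 0.057 and 0.092), and Col4a1, Col4a2 and Col4a5 in the fit of those groups alone (0.054 to 0.081).

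FACIT collagens sit on the surface of fibrils. Of 7 tested genes 5 fell in mdx_IL5Tg against mdx (class median log2 -1.74), 4 rose in mdx against IL5Tg (1.91) and none passed in mdx_IL5Tg against IL5Tg (-0.32; 1 was higher and 2 lower at an unadjusted edgeR p under 0.05, and DESeq2 called Col14a1 higher). Col12a1 (chr9:79598991-79718831, minus strand), found in tendon, muscle and other load-bearing tissue, led the class with 9.8, 17.3 and 8.75 CPM in mdx_IL5Tg, 84.6, 40.5 and 43.8 in mdx and 17.1, 11.1 and 16.6 in IL5Tg. All mdx libraries were above the others, S4 by the widest margin. This transcript fell in mdx_IL5Tg against mdx (log2 -2.24 ± 0.34 SE, adjusted p = 0.0017 by edgeR) and rose in mdx against IL5Tg (log2 1.91 ± 0.34 SE, adjusted p = 0.0033 by edgeR). Col14a1 (chr15:55307750-55520803, plus strand), a close relative that regulates fibril growth, had 9.6, 21.7 and 7.7 CPM in mdx_IL5Tg, 55, 38.3 and 31.2 in mdx and 4.9, 3.15 and 8.5 in IL5Tg. It fell in mdx_IL5Tg against mdx (log2 -1.68 ± 0.43 SE, adjusted p = 0.02 by edgeR) and rose in mdx against IL5Tg (log2 2.92 ± 0.45 SE, adjusted p = 0.0017 by edgeR).

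Col16a1 (chr4:130047840-130099283, plus strand), which occurs at fibrils and cell contacts, had 4.98, 8.36 and 2.43 CPM in mdx_IL5Tg, 23.4, 31.9 and 14.7 in mdx and 2.94, 1.56 and 3.69 in IL5Tg. Col20a1 (chr2:180986535-181018363, plus strand) had 1.54, 1.89 and 1.36 CPM in mdx_IL5Tg, 3.89, 3.82 and 3.54 in mdx and 1.44, 0.941 and 0.522 in IL5Tg. Both had their mdx libraries above all others. Col16a1 was at log2 -2.15 in mdx_IL5Tg against mdx and 3.10 in mdx against IL5Tg, and Col20a1 at -1.23 and 1.94; all 4 values passed. Type IX collagen coats cartilage fibrils. Of its 3 genes only Col9a3 passed, in mdx_IL5Tg against mdx (log2 -2.23 ± 0.61 SE, adjusted p = 0.026 by edgeR), with 0.474, 1.01 and 0.261 CPM in mdx_IL5Tg, 1.76, 4.92 and 1.59 in mdx and 1.38, 0.876 and 2.35 in IL5Tg. Col9a1 and Col9a2 were at log2 -1.74 and -1.58 there, and both had their highest IL5Tg value in S9 (3.91 CPM for Col9a1 and 2.09 for Col9a2). Col9a3 overlaps Tcfl5 on the opposite strand, and whether counting used strand is not known from the sources here. FACIT calls in mdx_IL5Tg against mdx were lost, with edgeR, without mdx_IL5Tg S1 for Col9a3, Col14a1, Col16a1 and Col20a1 (adjusted p 0.0503 to 0.124), without mdx_IL5Tg S3 for Col9a3, Col14a1 and Col20a1 (adjusted p 0.0738 to 0.0986), without mdx S4 for Col14a1 and Col20a1 (adjusted p 0.0868 to 0.0986), without mdx S5 for Col9a3 (adjusted p 0.0712) and without mdx S6 for Col20a1 (adjusted p 0.0796). Col14a1 also lost this call with no filter (adjusted p 0.099 by edgeR), and Col9a3 in the fit of those groups alone (0.05, at the threshold). No FACIT call in mdx against IL5Tg ended with 1 library left out.

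The 18 other genes include 6 chains of type VI, a beaded filament that anchors muscle fibres to their surroundings and whose mutation in people causes muscle disease. Of 16 tested others, 9 fell in mdx_IL5Tg against mdx (class median log2 -1.61), beside 11.5% of all genes. In mdx against IL5Tg 9 rose (1.92), beside 11.8%. In mdx_IL5Tg against IL5Tg 1 rose (0.47), beside 4.35%. There 4 were higher and 0 lower at an unadjusted edgeR p under 0.05 (13.5% and 14.2% of all genes). DESeq2 called Col6a5, Col6a6 and Col15a1 higher in that comparison. The 5 type VI chains tested were all above 0 there (median log2 0.90). Col6a3 (chr1:90765923-90843971, minus strand) had the highest mean CPM of these 18 genes over the 9 libraries. It stood at 66, 118 and 36.6 CPM in mdx_IL5Tg, 292, 265 and 202 in mdx and 38.1, 27.5 and 52.6 in IL5Tg. All mdx libraries exceeded the other 6, and mdx_IL5Tg S3 lay within IL5Tg. The transcript fell in mdx_IL5Tg against mdx (log2 -1.78 ± 0.37 SE, adjusted p = 0.0081 by edgeR) and rose in mdx against IL5Tg (log2 2.68 ± 0.38 SE, adjusted p = 0.0011 by edgeR). Its partners Col6a1 (chr10:76708792-76726168, minus strand) and Col6a2 (chr10:76595762-76623630, minus strand) lie on the same strand of a chromosome. Col6a1 had 41.5, 73.6 and 20.1 CPM in mdx_IL5Tg, 158, 141 and 103 in mdx and 23.8, 17.5 and 37.9 in IL5Tg, and Col6a2 had 32.7, 68.5 and 17.8 CPM in mdx_IL5Tg, 155, 113 and 104 in mdx and 20.8, 14 and 31.9 in IL5Tg. By mean CPM each of these 3 genes had the order mdx, mdx_IL5Tg and IL5Tg from high to low, and Col6a1 and Col6a2 fell in mdx_IL5Tg against mdx (log2 -1.57 and -1.64) and rose in mdx against IL5Tg (2.34 and 2.48). Col6a6 (chr9:105687809-105828160, minus strand) had 1.58, 3.12 and 1.49 CPM in mdx_IL5Tg, 9.63, 5.46 and 4.65 in mdx and 0.736, 0.811 and 1.23 in IL5Tg, with the 3 groups apart and IL5Tg lowest. It fell in mdx_IL5Tg against mdx (log2 -1.68 ± 0.39 SE, adjusted p = 0.013 by edgeR), rose in mdx against IL5Tg (log2 2.83 ± 0.42 SE, adjusted p = 0.0013 by edgeR) and was at log2 1.16 ± 0.41 SE, adjusted p = 0.1 by edgeR in mdx_IL5Tg against IL5Tg.

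Col6a5 (chr9:105856078-105960643, minus strand) differed from the other type VI chains tested in the order of its groups. It had 1.4, 3.02 and 3.13 CPM in mdx_IL5Tg, 1.95, 1.00 and 0.651 in mdx and 0.384, 0.454 and 0.746 in IL5Tg. All mdx_IL5Tg libraries were above all IL5Tg libraries, while mdx overlapped both. It rose in mdx_IL5Tg against IL5Tg (log2 2.25 ± 0.51 SE, adjusted p = 0.032 by edgeR), the largest positive log2 fold change of the 39 in that comparison. In mdx_IL5Tg against mdx it was at log2 1.06 ± 0.47 SE, adjusted p = 0.13 by edgeR, and in mdx against IL5Tg at log2 1.20 ± 0.51 SE, adjusted p = 0.12 by edgeR. The call ended without mdx_IL5Tg S1 or S2 or IL5Tg S7, S8 or S9 (edgeR adjusted p 0.0559 to 0.0909). Its counts were 71, 120 and 120 in mdx_IL5Tg, 93, 30 and 27 in mdx and 12, 14 and 20 in IL5Tg. Its window (chr9:105960594-105960893, minus strand), shown because its groups stood in another order, reads as follows.
Col6a5: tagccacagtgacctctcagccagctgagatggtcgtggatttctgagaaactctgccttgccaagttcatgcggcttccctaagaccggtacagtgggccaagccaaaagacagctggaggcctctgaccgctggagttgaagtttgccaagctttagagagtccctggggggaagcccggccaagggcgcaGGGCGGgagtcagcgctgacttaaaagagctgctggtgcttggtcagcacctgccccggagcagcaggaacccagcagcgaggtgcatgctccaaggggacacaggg
It holds 1 GC box and no match to the other 2 boxes.

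Types XV and XVIII are the multiplexins, which link basement membranes to nearby fibrils and whose ends give endostatin-like fragments. Col15a1 (chr4:47208161-47313167, plus strand) had 93.9, 143 and 51.8 CPM in mdx_IL5Tg, 197, 181 and 179 in mdx and 58.9, 34.6 and 57.7 in IL5Tg. It rose in mdx against IL5Tg (log2 1.88 ± 0.32 SE, adjusted p = 0.0027 by edgeR) and was at log2 -0.95 ± 0.31 SE, adjusted p = 0.051 by edgeR in mdx_IL5Tg against mdx, with no overlap between these groups. Col18a1 (chr10:77052178-77166548, minus strand), which overlaps Slc19a1 on the opposite strand, had 23.6, 33 and 12 CPM in mdx_IL5Tg, 55.1, 62.4 and 52.6 in mdx and 15.9, 9.7 and 17.8 in IL5Tg. The gene fell in mdx_IL5Tg against mdx (log2 -1.31 ± 0.32 SE, adjusted p = 0.017 by edgeR) and rose in mdx against IL5Tg (log2 1.97 ± 0.33 SE, adjusted p = 0.0025 by edgeR).

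Type VIII collagen forms a short-chain network under endothelium. Col8a1 had 4.78, 9.59 and 4.05 CPM in mdx_IL5Tg, 24.2, 23.8 and 17.3 in mdx and 5.54, 3.6 and 6.82 in IL5Tg, and Col8a2 had 0.928, 1.64 and 0.339 CPM in mdx_IL5Tg, 5.28, 5.19 and 2.82 in mdx and 0.896, 1.49 and 1.83 in IL5Tg. Both had all mdx libraries above the other 6. Col8a1 fell in mdx_IL5Tg against mdx (log2 -1.83 ± 0.34 SE, adjusted p = 0.0049 by edgeR) and rose in mdx against IL5Tg (log2 2.03 ± 0.35 SE, adjusted p = 0.0027 by edgeR); Col8a2 was at log2 -2.19 and 1.66, both past the threshold. Type X belongs to hypertrophic cartilage. Col10a1 had 2.13, 2.04 and 0.0261 CPM in mdx_IL5Tg, 0.356, 1.71 and 0.265 in mdx and 2.11, 0.13 and 2.35 in IL5Tg, with low and high libraries in every group, and it overlaps Nt5dc1 on the opposite strand. The transmembrane collagens span the cell surface. Col13a1, a collagen of neuromuscular and other cell contacts, had 0.454, 0.252 and 0.131 CPM in mdx_IL5Tg, 1.11, 1.54 and 0.627 in mdx and 0.512, 0.487 and 0.485 in IL5Tg. It fell in mdx_IL5Tg against mdx (log2 -1.93 ± 0.53 SE, adjusted p = 0.026 by edgeR), where its groups did not overlap, and its mdx_IL5Tg libraries also lay below all IL5Tg libraries without passing the test (log2 -0.80). Col23a1 had 0.336, 0.554 and 0.261 CPM in mdx_IL5Tg, 1.59, 2.41 and 0.989 in mdx and 0.128, 0.454 and 0.373 in IL5Tg, fell in mdx_IL5Tg against mdx (log2 -2.10 ± 0.53 SE, adjusted p = 0.019 by edgeR) and rose in mdx against IL5Tg (log2 2.37 ± 0.56 SE, adjusted p = 0.014 by edgeR). Col7a1, Col17a1, Col26a1 and Col28a1 passed in no comparison and ranged from 0.0261 to 2.2 CPM over all libraries.

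Calls among these 18 genes in mdx_IL5Tg against mdx were lost, with edgeR, without mdx_IL5Tg S1 for Col6a1, Col6a2, Col6a3, Col6a6, Col8a2, Col18a1 and Col23a1 (adjusted p 0.0506 to 0.114), without mdx_IL5Tg S2 for Col13a1 (adjusted p 0.0744), without mdx_IL5Tg S3 for Col6a2, Col13a1 and Col23a1 (adjusted p 0.0621 to 0.0879), without mdx S4 for Col6a1, Col6a2, Col6a6, Col8a2, Col13a1, Col18a1 and Col23a1 (adjusted p 0.0532 to 0.106) and without mdx S5 for Col6a1 and Col13a1 (adjusted p 0.054 to 0.0585). The call in mdx against IL5Tg was lost for Col8a2 without mdx_IL5Tg S1, mdx S4, mdx S5, IL5Tg S7, IL5Tg S8 or IL5Tg S9 (adjusted p 0.064 to 0.129 by edgeR). Col6a1, Col6a2 and Col6a3 also lost the call in mdx_IL5Tg against mdx with no filter (edgeR adjusted p 0.051 to 0.12), and Col13a1 in the fit of those groups alone (0.06).

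The 4 genes that failed the filter, Col4a6, Col6a4, Col19a1 and Col25a1, had 1 to 26 counts per library and were not tested. Of the 39 tested genes 29 passed in at least 1 comparison and 10 in none. No collagen gene was listed at 0 in any library.

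Count ratios between 2 collagen genes in a library do not depend on scaling and show whether genes moved by the same factor. The ratios were chosen after values were seen. Ratios between chains of the same type differed in their range over the 9 libraries. They were narrow for the abundant chains, 1.42 to 1.75 for Col1a1 to Col1a2, 1.76 to 2.04 for Col4a1 to Col4a2 and 0.996 to 1.27 for Col6a1 to Col6a2. Ranges were wider for less abundant chains, 0.549 to 1.03 for Col11a1 to Col11a2 and 0.1 to 1.67 for Col9a1 to Col9a3. Col5a1 to Col5a2 lay at 0.946 to 1.07 in mdx_IL5Tg, 1.03 to 1.1 in mdx and 0.871 to 1.01 in IL5Tg, with mdx wholly above IL5Tg. Col3a1 to Col1a1 was 0.462, 0.468 and 0.604 in mdx_IL5Tg, 0.545, 0.417 and 0.457 in mdx and 0.196, 0.202 and 0.223 in IL5Tg, so mdx_IL5Tg and mdx both lay above IL5Tg without overlap. Col5a3 to Col1a1 was 0.0254, 0.0223 and 0.0335 in mdx_IL5Tg, 0.0228, 0.0154 and 0.0246 in mdx and 0.00986, 0.0104 and 0.00655 in IL5Tg, and Col5a1 to Col1a1 was 0.0475, 0.0467 and 0.057 in mdx_IL5Tg, 0.0542, 0.0377 and 0.0512 in mdx and 0.0232, 0.0232 and 0.0200 in IL5Tg. These 3 ratios had the same order: IL5Tg was the lowest group in each, and mdx_IL5Tg and mdx overlapped. Col4a1 to Col1a1 was 0.599, 0.466 and 0.667 in mdx_IL5Tg, 0.303, 0.236 and 0.457 in mdx and 0.276, 0.325 and 0.178 in IL5Tg, with mdx_IL5Tg above both other groups. Col2a1 to Col1a1 ran the other way, at 0.0202, 0.0204 and 0.00836 in mdx_IL5Tg, 0.0225, 0.0248 and 0.0128 in mdx and 0.0312, 0.0277 and 0.0541 in IL5Tg, with IL5Tg above both. Each comparison of non-overlapping groups had an exact two-sided permutation p = 0.1, the smallest that 3 against 3 libraries allow. No ratio could therefore reach 0.05, and these values are given as a description; over the 36 tests the smallest Benjamini-Hochberg adjusted value was 0.28.

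**Figure D4:**
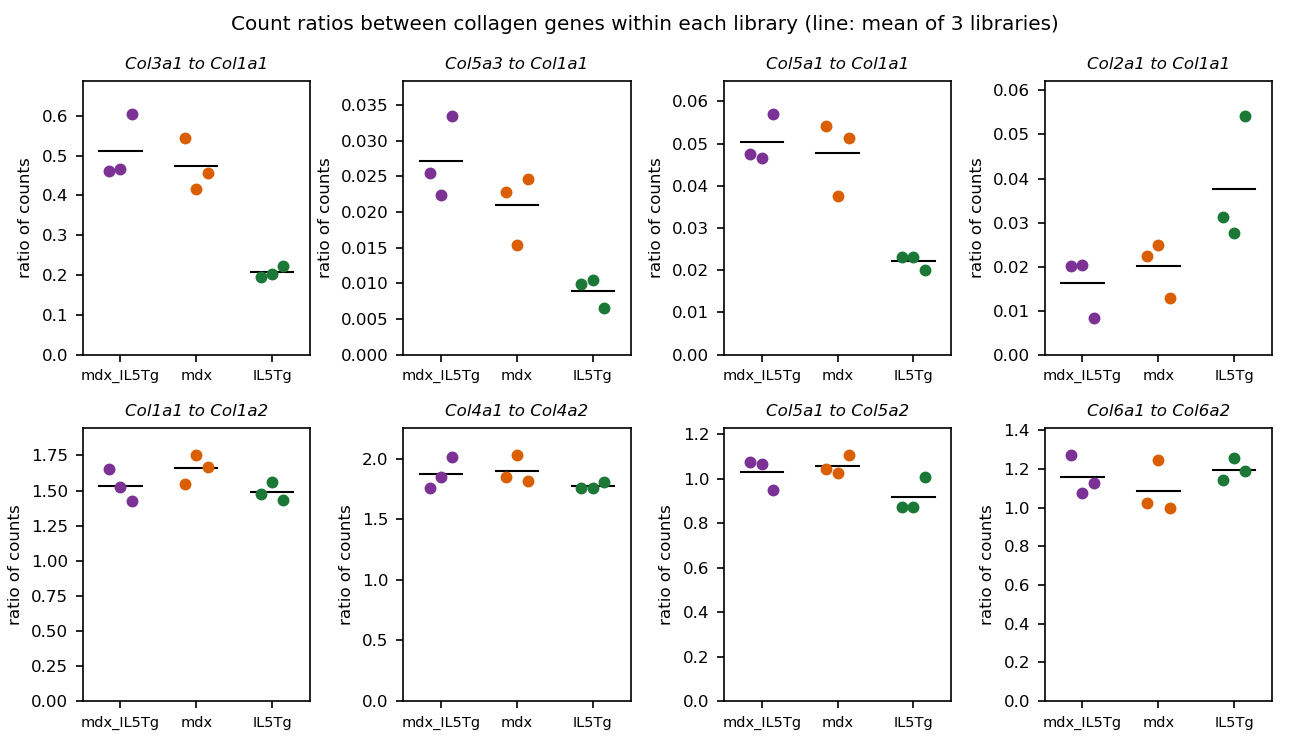
Ratio of counts between 2 collagen genes within a library, from 0 on a linear axis, with a point for each library and a line for the mean of 3. Col3a1 to Col1a1 lies at 0.196 to 0.223 in IL5Tg, below the 6 libraries of the other groups, while Col1a1 to Col1a2 lies at 1.42 to 1.75 and Col4a1 to Col4a2 at 1.76 to 2.04 over all 9.

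Levels between genes are compared as CPM per kb of annotated exon (union of exons, GENCODE M21). Col1a1 was first in each group, at 116 ± 79.3 CPM per kb in mdx_IL5Tg, 516 ± 263 in mdx and 117 ± 47.6 in IL5Tg (SD, n = 3). Col4a1 was at rank 2 in mdx_IL5Tg, rank 4 in mdx and rank 3 in IL5Tg, at 53.9 ± 28 CPM per kb in mdx_IL5Tg, 135 ± 28.7 in mdx and 24.6 ± 2.89 in IL5Tg. Col1a2 stood at 39.5 ± 27.3 CPM per kb in mdx_IL5Tg, 163 ± 75 in mdx and 41.9 ± 18.7 in IL5Tg, and Col3a1 at 37.4 ± 23.1 CPM per kb in mdx_IL5Tg, 159 ± 66.4 in mdx and 16.4 ± 7.79 in IL5Tg. Within a group, these neighbours below Col1a1 differed by less than the larger SD of each pair in mdx_IL5Tg and in mdx. Dividing by the longest transcript in place of the union put the order at Col1a1, Col1a2, Col3a1, Col4a1 and Col4a2 in every group. By CPM per kb, fibrillar genes held 57.3 to 63.4% in mdx_IL5Tg, 63.6 to 77.7% in mdx and 68.4 to 77.3% in IL5Tg of the collagen total of a library, and basement membrane genes 23.7 to 28.5% in mdx_IL5Tg, 15 to 23.9% in mdx and 12.3 to 20.7% in IL5Tg. The basement membrane share was above every IL5Tg library in each mdx_IL5Tg library, and overlapped mdx at its lower end.

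Genes that build and finish collagen were listed apart from the collagens, as 31 enzymes, chaperones and crosslinkers, all tested. In mdx_IL5Tg against mdx 18 fell and 3 rose, where 11.5% and 10.1% of all genes did so (list median log2 -1.28, all genes -0.13). In mdx against IL5Tg 15 rose and 2 fell, beside 11.8% and 8.96% of all genes (median 1.23, all genes 0.01). In mdx_IL5Tg against IL5Tg 2 rose and 1 fell, shares near the 4.35% and 2.87% of all genes (median 0.28, all genes -0.05). Loxl1, a lysyl oxidase that crosslinks matrix, stood at 4.17, 6.07 and 1.85 CPM in mdx_IL5Tg, 20.3, 20.2 and 14.6 in mdx and 1.06, 1.14 and 2.53 in IL5Tg, lower in mdx_IL5Tg than in mdx (log2 -2.19 ± 0.43 SE, adjusted p = 0.006 by edgeR) and higher in mdx than in IL5Tg (log2 3.55 ± 0.46 SE, adjusted p = 0.00062 by edgeR). Bmp1, which cuts the propeptide off procollagen, its enhancer Pcolce and the lysyl hydroxylase Plod1 rose in mdx against IL5Tg (log2 2.11, 1.89 and 0.97). The prolyl hydroxylase subunit P4ha3, named after its values were seen, fell in mdx_IL5Tg against mdx (log2 -2.46). Some of the list had another order of groups. P4hb, a subunit of prolyl hydroxylase and a general disulphide isomerase of secretory cells, had 772, 738 and 588 CPM in mdx_IL5Tg, 276, 292 and 260.3 in mdx and 483, 383 and 489.9 in IL5Tg and rose in mdx_IL5Tg against mdx (log2 1.34 ± 0.15 SE, adjusted p = 0.0003 by edgeR) and in mdx_IL5Tg against IL5Tg (log2 0.63 ± 0.15 SE, adjusted p = 0.036 by edgeR). P4ha1, a catalytic subunit, also rose in both (log2 0.88 and 0.76), and the peptidyl-prolyl isomerase Ppib rose in mdx_IL5Tg against mdx (0.79). Tll1, a relative of Bmp1, fell in mdx_IL5Tg against IL5Tg (log2 -1.10 ± 0.26 SE, adjusted p = 0.035 by edgeR).

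Of 10 collagen receptors 9 were tested and Gp6 was not. Itga2, the alpha 2 integrin chain that binds collagen, had 39.1, 34.8 and 43.9 CPM in mdx_IL5Tg, 13.6, 11.5 and 14.5 in mdx and 71.4, 61.8 and 83.4 in IL5Tg, and its 3 groups did not overlap. It fell in mdx_IL5Tg against IL5Tg (log2 -0.88 ± 0.16 SE, adjusted p = 0.015 by edgeR), rose in mdx_IL5Tg against mdx (log2 1.57 ± 0.16 SE, adjusted p = 0.00014 by edgeR) and fell in mdx against IL5Tg (log2 -2.45 ± 0.16 SE, adjusted p = 9e-06 by edgeR), the reverse of the order of Col5a3. Mrc2, an endocytic receptor that takes up collagen, rose in mdx against IL5Tg (log2 3.06 ± 0.48 SE, adjusted p = 0.0017 by edgeR), as did Itga11 (2.15), and the inhibitory receptor Lair1 fell (-1.51). Of the 9, 4 fell and 1 rose in mdx_IL5Tg against mdx, beside 11.5% and 10.1% of all genes. Ddr2 was at log2 -1.40 there, Itga1 at -1.26 and Mrc2 at -1.92. In mdx against IL5Tg 4 rose and 2 fell, beside 11.8% and 8.96% of all genes. In mdx_IL5Tg against IL5Tg 0 rose and 1 fell, beside 4.35% and 2.87%. The list's median log2 fold changes were -0.29 in mdx_IL5Tg against IL5Tg (all genes -0.05), -1.26 in mdx_IL5Tg against mdx (-0.13) and 0.84 in mdx against IL5Tg (0.01).

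Markers of other cell types were set beside the collagen genes. Over all genes, 11.5% were called lower and 10.1% higher in mdx_IL5Tg against mdx. In mdx against IL5Tg the shares were 11.8% higher and 8.96% lower, and in mdx_IL5Tg against IL5Tg 4.35% higher and 2.87% lower. The 12 fibroblast markers summed to 195 to 391 CPM in mdx_IL5Tg, 463 to 824 in mdx and 155 to 250.3 in IL5Tg. Of 11 tested, 9 fell and 1 rose in mdx_IL5Tg against mdx, and 8 rose in mdx against IL5Tg. The marker that rose in mdx_IL5Tg against mdx was Pi16 (log2 1.16). It averaged 118 CPM in mdx_IL5Tg, 53.1 in mdx and 81.5 in IL5Tg, and so was lowest where the sum was highest. Tcf21, a marker of fibroblast progenitors, was listed at 0 in 7 of 9 libraries. The 5 tenocyte markers summed to 52.4 to 128 CPM in mdx_IL5Tg, 253 to 422 in mdx and 52.9 to 129 in IL5Tg, with 3 of 5 lower in mdx_IL5Tg against mdx and 2 higher in mdx against IL5Tg. The 8 endothelial markers summed to 256 to 551 CPM in mdx_IL5Tg, 543 to 699 in mdx and 347 to 473 in IL5Tg, with 1 lower and 4 higher in the same comparisons. That 1 of 8 was lower is near the 11.5% of all genes. At an unadjusted edgeR p under 0.05, 6 of the 8 were lower in mdx_IL5Tg against mdx (21.0% of all genes). All 8 had a negative log2 fold change there, with a median of -0.85 (all genes -0.13). The 7 smooth muscle and pericyte markers summed to 155 to 328 CPM in mdx_IL5Tg, 407 to 514 in mdx and 246 to 385 in IL5Tg, with 5 lower and 3 higher. None of these 4 lists had a call in mdx_IL5Tg against IL5Tg, where few of all genes were called (4.35% higher and 2.87% lower). The 10 muscle fibre markers summed to 20.1 to 25.5 CPM in mdx_IL5Tg, 32.5 to 67.3 in mdx and 7.87 to 11.6 in IL5Tg, with 6 of 9 tested lower in mdx_IL5Tg against mdx, 9 higher in mdx against IL5Tg and 5 higher in mdx_IL5Tg against IL5Tg. The 6 satellite cell and myoblast markers summed to 3.68 to 8.69 CPM in mdx_IL5Tg, 18.1 to 28.3 in mdx and 2.27 to 3.81 in IL5Tg, with 5 lower, 5 higher and 1 higher in that order. Of 10 macrophage markers, with a sum of 2510.3 to 2778 CPM in mdx_IL5Tg, 1703 to 2212 in mdx and 1606 to 1976 in IL5Tg, 8 were lower and 1 higher, 9 higher, and 5 higher in that order. Adgre1, which mouse eosinophils also express, makes up most of that sum, with 2238, 2056 and 2439 CPM in mdx_IL5Tg, 1190.3, 1330.2 and 1082 in mdx and 1389, 1641 and 1749 in IL5Tg. It was the marker called higher in mdx_IL5Tg against mdx (log2 0.90), while the 8 called lower were at log2 -2.76 to -1.67. The 6 Schwann cell markers summed to 237 to 249.98 CPM in mdx_IL5Tg, 164 to 222 in mdx and 186 to 224 in IL5Tg, with 5 lower and 1 higher, 2 higher and 1 lower, and none called. The sums of the fibroblast, tenocyte, smooth muscle and pericyte, muscle fibre, and satellite cell and myoblast lists were each higher in every mdx library than in the other 6, as the collagen sum was. For the endothelial list, mdx_IL5Tg S2 lay within mdx. The part of these cell types in the collagen results was not tested.

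**Figure D5:**
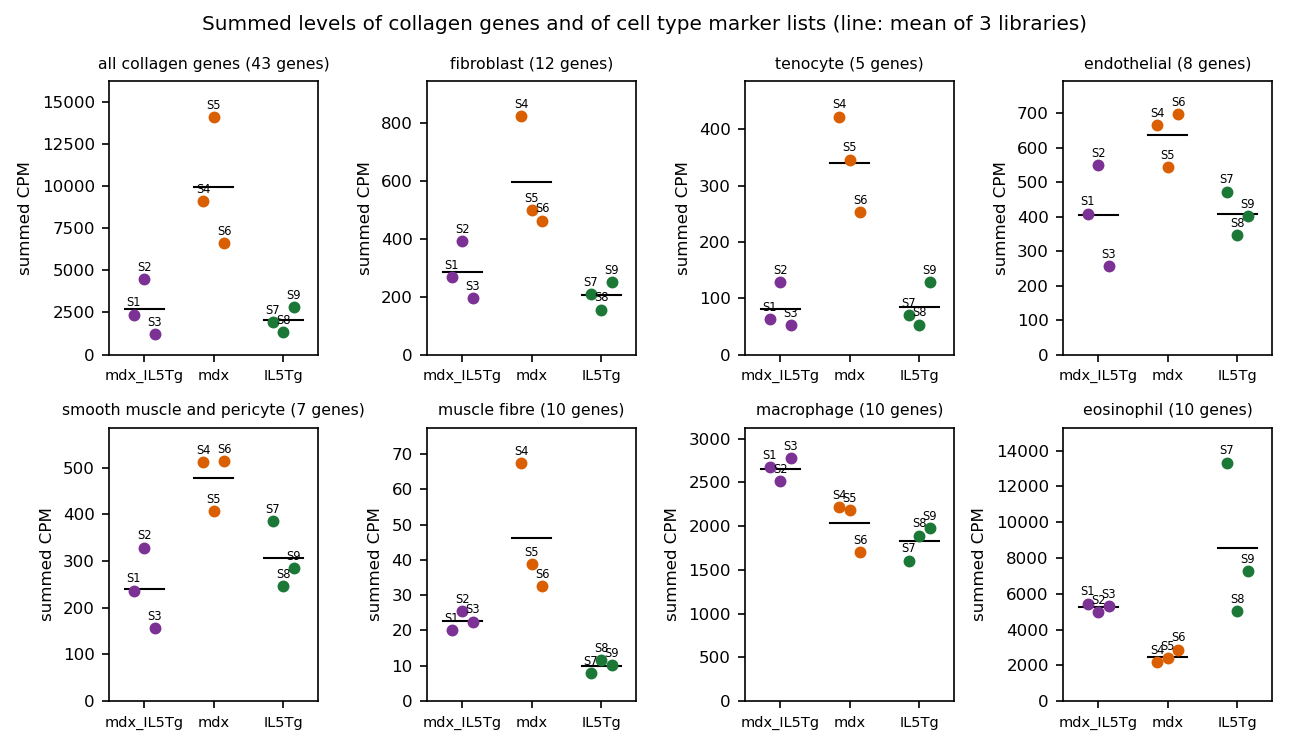
Summed CPM of the 43 collagen genes and of 7 lists of cell type markers in each library, from 0 on a linear axis, with the library number beside each point and a line for the mean of 3. Collagen, fibroblast, tenocyte, smooth muscle and pericyte, and muscle fibre sums are highest in the 3 mdx libraries, where the eosinophil sum is lowest, at 2169 to 2876 CPM.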

How the data were processed

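Gene positions are those of GENCODE M21 (GRCm38), which holds 54079 of the identifiers, and promoter windows are from RefSeq (GRCm38.p6). The authors deposited expected counts per gene, estimated with RSEM and not normalised, for 54146 genes. Per the submitters' processing notes, cutadapt 2.10, STAR 2.5.3, RSEM 1.3.0 and limma were used with mouse build mm10; the sources used here do not give settings, annotation or strand. Of all values 6.03% were not whole (tolerance 1e-09), and all were rounded to whole counts. RSEM shares reads among genes by estimation, so overlapping genes are uncertain.

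Columns were matched to groups by name and carry an S number, not the replicate number of the titles. Genes were kept by filterByExpr (minimum count 10), libraries scaled with TMM, and groups compared by the robust quasi-likelihood test of edgeR 4.0.16 (R 4.3.3), fitted once to 9 libraries with group means. P-values were adjusted by Benjamini-Hochberg over 15886 genes with a threshold of 0.05. The SE was recovered from the F statistic. Single ratios had exact permutation tests. The script was tested on simulated data. Alternatives were DESeq2 1.42.0, limma 3.58.1 voom, RLE factors, library totals, no filter, 50 counts in 3 libraries, only the groups compared and each library left out; removing IL5Tg S7 and mdx S5 together was chosen after seeing the data. Members, classes, lists and tests were chosen with earlier results of these data known. Values in every library are given for members past the threshold and for the member with the highest mean CPM of each class, and up to 4 genes with the smallest p are named per pathway list and comparison; ratios, Col2a1, Col10a1 and most promoters were added after values were seen.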

Additional observations from a re-analysis of the deposited data

How the results depend on the processing

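No paired analysis was possible because the columns carry no replicate number of the titles. In mdx_IL5Tg against IL5Tg the 2 collagen genes called higher became 8 with DESeq2, 1 with limma voom, 0 to 11 with 1 library left out and 0 with IL5Tg S7 and mdx S5 both removed. In mdx_IL5Tg against mdx the 27 called lower became 8 to 26 with 1 library left out and 14 without that pair. In mdx against IL5Tg the 25 called higher became 19 to 27 with 1 library left out and 16 without that pair. Counts under RLE factors, library totals, no filter, the stricter filter and the fit of 2 groups stayed within 1.5 times, but not with the same genes: with no filter 17 of the 27 and 22 of the 25 calls were kept, and the fit of mdx_IL5Tg and mdx alone kept 21 of the 27. The stricter filter left 30 collagen genes tested in place of 39. Among the genes called in the main fit, it left Col13a1, Col23a1 and Col24a1 untested. In no setting was a collagen gene called in the other direction. The log2 fold change of Col1a1 in mdx_IL5Tg against IL5Tg, -0.02, ran from -0.64 to 0.43 with 1 library left out, and was positive without IL5Tg S9 (0.40), mdx S6 (0.04), mdx S4 (0.04), mdx_IL5Tg S3 (0.43) or S1 (0.14). By the longest transcript, which is shorter than the union of exons, Col1a2 stood at 91.8 CPM per kb in mdx_IL5Tg, 378 in mdx and 97.5 in IL5Tg, Col3a1 at 65.9, 280.3 and 29.0 in the same groups, and Col4a1 at 27.8 in IL5Tg. The causes of the changed calls were not tested. With 3 libraries a group, genes at few counts, such as Col24a1 and Col17a1, have wide errors.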
